A study of Homo sapiens with 54 samples.

Results

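The genes described here are the ZNF zinc-finger genes that HEK293T cells expressed, 285 of the 534 genes with a ZNF number in the table of 38137 genes. A gene was taken when the authors had kept it and when its mean level over all 54 libraries reached 10 CPM, the library's counts scaled to a common total. Of the 452 kept ZNF genes, 165 lay under that limit. The members just inside the limit were ZNF681, ZNF234 and ZNF684 with mean levels of 10.05, 10.03 and 10.01 CPM, and just outside lay ZNF419, ZNF44 and ZNF799 with 9.769, 9.599 and 9.569 CPM. The members were thus chosen by their mean CPM over all libraries, which is therefore only described. The rule itself took no value from a comparison between groups, but the group of genes was chosen with earlier results of these data known. All 285 members passed the filter on low counts and were tested.

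Most ZNF genes encode C2H2 zinc-finger proteins, in which each finger is a short loop folded around a zinc ion that reads a few bases of DNA, and in which many fingers follow each other as beads joined by a conserved linker. The largest branch carries a KRAB box at the start of the protein, which recruits the corepressor TRIM28 and, through it, the histone methyltransferase SETDB1 and heterochromatin proteins, and these genes are best known for silencing transposable elements. Many lie in clusters on chromosome 19. The group also holds genes of other roles, such as ZNF207, whose protein helps chromosomes align in mitosis, and ZNF326, whose protein joins transcript elongation to splicing.

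RNA sequencing compared 18 groups of 3 independent replicates in HEK293T, a human embryonic kidney line with a wild-type genotype label. Cells were transiently transfected with plasmids for RfxCas13d (WT), an RNA-guided RNase, or for RfxCas13d-N2V7 or RfxCas13d-N2V8, engineered forms made to lessen its collateral cleavage of bystander RNAs. Each effector was paired with crRNA-13 against C9ORF72 (S13), with 1 of 3 additional crRNAs whose targets the labels do not give (S3, S4 and S7) or with a non-targeting crRNA (NTG). Cells given ASO2 or ASO4, antisense oligonucleotides against C9ORF72 in the study's text, and untransfected cells (UT) completed the set. The label of the N2V8_S13 libraries reads N2V87, and the harvest is placed at 48 h by the labels and later by the study's text. UT cells received no plasmid, so that transfection and effector cannot be told apart in a comparison with UT.

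Libraries held 9546826 to 15099153 estimated counts. C9orf72 measured 10.5 to 11.9 CPM in ASO4 libraries and 27.5 to 30.0 CPM in UT libraries, and its gene-level value overlapped that of NTG or lay close to it with S13 (25.9 to 26.7 CPM in WT_S13 and 25.6 to 33.2 CPM in WT_NTG). Genes known from HEK293 cells were present (NEFL 96.8 to 148 CPM, VIM 794 to 1360 CPM and PAX2 2.14 to 9.13 CPM), PTPRC, CD3E, PECAM1, ALB, DBH and TH stayed at 0.671 CPM or less, and COL1A1 reached up to 33.0 CPM. Library 2 of N2V7_S4 stood apart with a residual SD of 0.523, against 0.269 or less in all libraries outside that group. Libraries 1 and 3 of N2V7_S4 also lay above that, with 0.307 and 0.383. Results with N2V7_S4 are given with and without library 2. Here and below, CPM of members and of C9orf72 are scaled by TMM, log2 fold changes are given ± SE with p adjusted over all tested genes by edgeR's quasi-likelihood test, and calls needed an absolute log2 fold change above 0.32 with an adjusted p below 0.05. Members in bulk RNA are measured over all cells together, so that fewer cells and less RNA per cell cannot be told apart. Most genes named below were picked among called members whose libraries did not overlap between the groups compared. Lack of overlap is thus part of the choice and adds no support of its own.

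The members shared more than the letters of their name. RefSeq placed 114 of the 285 (40%) on chromosome 19, against 7.23% of protein-coding genes. In the 282 members with a coding transcript in GENCODE, a search for the C2H2 pattern found a median of 10 fingers and a range of 0 to 36, and 155 members held a match to the core of the KRAB A box, 93 of them on chromosome 19. Divergent boxes were not counted by this search. Members with a KRAB match had a median of 12 fingers and those without had 7.

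The linker between fingers is shown because it is a conserved stretch found in many members. In 225 members 1315 such linkers were counted, in 481 distinct forms of 21 bases. The second, the fifth and the sixth most frequent forms are given here from the transcripts in GENCODE, with the 15 bases for the linker residues in capitals. The most frequent form, with 83 occurrences in 23 members, is not shown.
linker 1 (66 occurrences in 24 members, among them ZNF107): catACTGGAGAGAAACCTtac
linker 2 (28 occurrences in 25 members, among them ZNF121): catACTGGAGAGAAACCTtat
linker 3 (26 occurrences in 9 members, among them ZNF283): cacACTGGTGAGAAACCCtat
Over whole transcripts 20 members shared 20% or more of their 31-base words with another gene. Among them were ZNF709 (88.8%), ZNF564 (82.5%), ZNF658 (70.1%), ZNF512 (37.2%) and ZNF587 (31.5% with ZNF417). The counts of these genes may be uncertain, if reads were split with the other gene. The sharing was found in GENCODE, whereas the authors quantified reads against NCBI transcripts. Whether those held the other gene was not checked.

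RefSeq promoters, 250 bases before to 50 bases after the start on GRCh38.p14, were found for 247 members. The ETS motif CCGGAAG, read on both strands, stood in 40.1% of them, against 18.3% of 12103 promoters of tested genes and 10.7% of all 27305 promoters. The CCAAT box (CCAAT) stood in 44.5% of member promoters, against 36.6% of those of tested genes and 35.7% of all, and the GC box (GGGCGGG) in 43.7%, against 53.7% and 32.9%. The CRE (TGACGTCA) stood in 5.67%, against 3.28% and 1.98%, and the YY1 motif (AAGATGGC) in 6.07%, against 5.02% and 3.03%. The NRF1 motif (GCGCATGCG) stood in 4.45%, against 3.77% and 2.10%, and the E-box (CACGTG) in 4.86%, against 10% and 7.43%. These motifs may overlap each other, and a match is only a string of letters. Promoters of 4 members that return in the results are printed 5′ to 3′ on the gene's strand with ETS and CCAAT letters in capitals, the first pair from genes that were lower and the other pair from genes that were higher with N2V7 and N2V8.
ZNF84, chr12:133037259-133037558, plus strand: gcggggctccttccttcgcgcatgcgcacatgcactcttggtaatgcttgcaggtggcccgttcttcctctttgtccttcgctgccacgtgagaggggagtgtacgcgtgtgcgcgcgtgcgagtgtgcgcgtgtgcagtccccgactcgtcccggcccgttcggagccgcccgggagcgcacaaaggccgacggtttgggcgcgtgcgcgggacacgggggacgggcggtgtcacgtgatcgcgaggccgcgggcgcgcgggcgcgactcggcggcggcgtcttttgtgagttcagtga
ZNF554, chr19:2819618-2819917, plus strand: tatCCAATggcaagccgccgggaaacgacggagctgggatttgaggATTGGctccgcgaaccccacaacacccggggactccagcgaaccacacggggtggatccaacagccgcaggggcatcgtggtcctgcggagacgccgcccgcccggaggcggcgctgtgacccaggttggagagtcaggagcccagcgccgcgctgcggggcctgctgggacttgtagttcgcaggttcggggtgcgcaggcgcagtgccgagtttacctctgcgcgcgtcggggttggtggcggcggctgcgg
ZNF326, chr1:89994860-89995159, plus strand: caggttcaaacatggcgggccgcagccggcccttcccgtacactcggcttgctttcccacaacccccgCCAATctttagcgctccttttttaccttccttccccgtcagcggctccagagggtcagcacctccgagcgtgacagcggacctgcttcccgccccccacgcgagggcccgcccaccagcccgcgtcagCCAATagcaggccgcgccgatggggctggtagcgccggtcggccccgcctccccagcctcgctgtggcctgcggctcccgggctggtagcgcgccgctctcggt
ZNF79, chr9:127424132-127424431, plus strand: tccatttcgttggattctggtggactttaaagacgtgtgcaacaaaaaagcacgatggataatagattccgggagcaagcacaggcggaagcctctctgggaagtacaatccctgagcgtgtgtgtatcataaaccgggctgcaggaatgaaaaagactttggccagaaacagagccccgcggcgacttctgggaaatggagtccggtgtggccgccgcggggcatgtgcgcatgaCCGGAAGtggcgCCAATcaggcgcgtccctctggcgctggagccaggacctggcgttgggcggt
The ETS letters stood in 38.8% of the 103 promoters of members that fell with N2V8_NTG against UT, in 15.4% of the 13 of members that rose and in 43.5% of the 131 of members with no call there.

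Levels spanned a wide range. The 5 highest mean levels belonged to ZNF24 (346.4 CPM), ZNF703 (260.1 CPM), ZNF664 (254 CPM), ZNF146 (231.9 CPM) and ZNF207 (163.4 CPM). Per kb of transcript the order of these 5 changed, with ZNF703 at 78.4, ZNF146 at 69.3, ZNF664 at 58.9, ZNF24 at 55.4 and ZNF207 at 11.9 CPM per kb. ZNF703 encodes a corepressor known from breast tumours, and ZNF146 a protein made of fingers alone.

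ZNF genes were lower in cells with an effector and the non-targeting crRNA than in untransfected cells, most with N2V8, less with N2V7 and least with WT. With N2V8_NTG against UT 114 of 285 members fell and 17 rose, while 14.7% of all tested genes fell and 15.3% rose. With N2V7_NTG against UT 79 fell and 15 rose, against a background of 9.95% falls and 10.9% rises, and with WT_NTG against UT 13 fell and 4 rose, against 2.38% falls and 2.71% rises. In percent of the members, the falls came to 40%, 27.7% and 4.56%. The median log2 fold change of the members was −0.25, −0.19 and −0.06 for N2V8, N2V7 and WT, where the median of all tested genes was 0 in each. Among all 10169 tested genes at 10 CPM or more, the level that chose the members, 16.8% fell and 16.9% rose with N2V8_NTG.

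**Figure D1:**
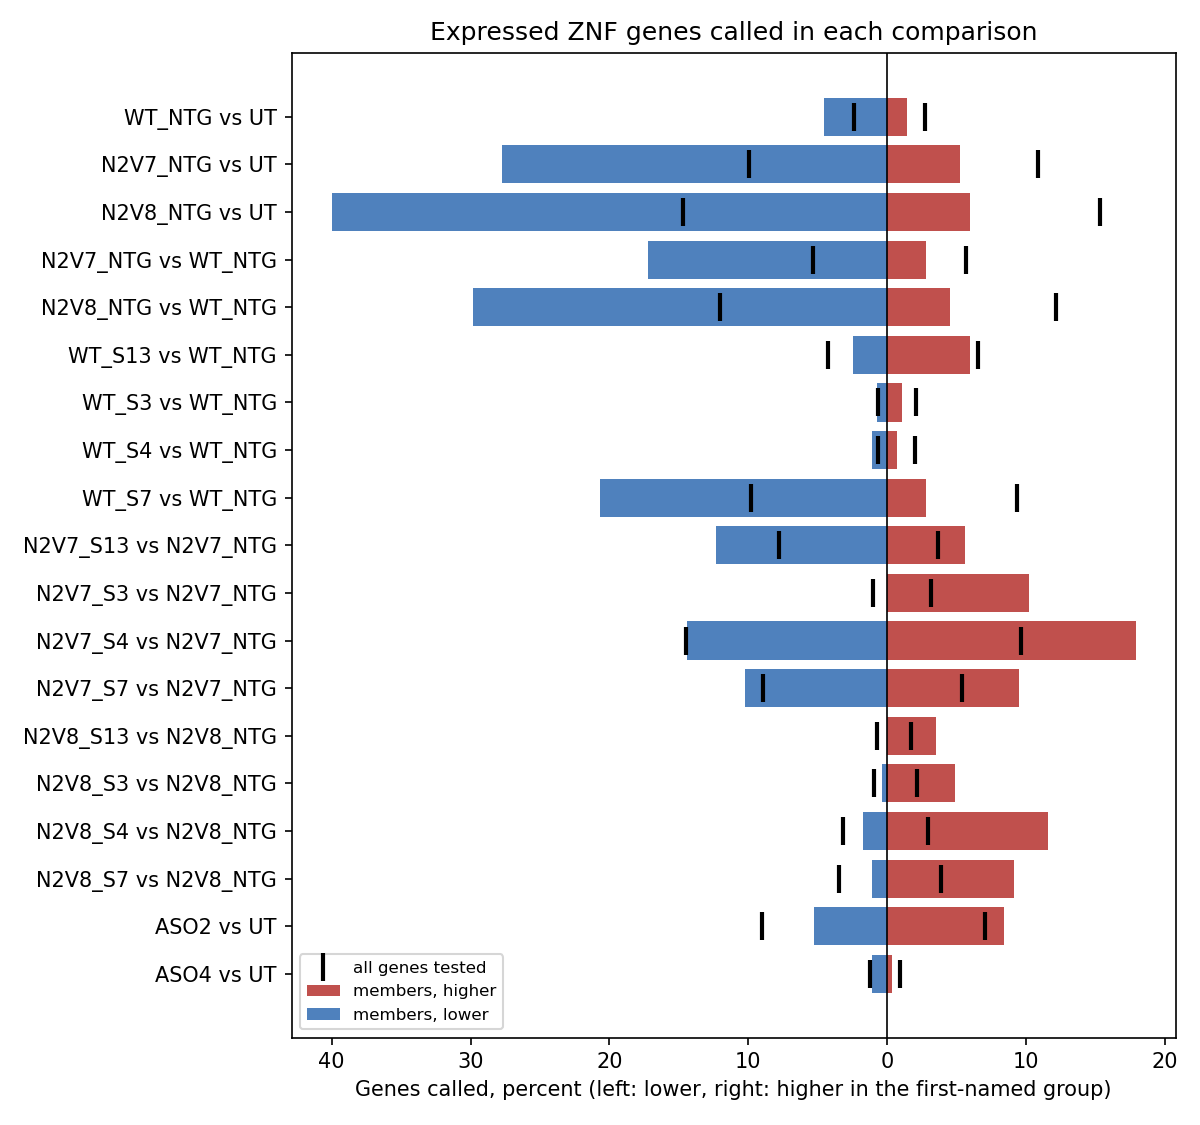
Percent of the 285 ZNF genes called lower (bars to the left) or higher (bars to the right) in the group named first of each comparison, with black ticks at the percent of all 15378 tested genes. With N2V8_NTG vs UT the bar of falls reaches 40% and its tick stands at 14.7%, while with ASO4 vs UT both bars are close to 0.

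After TMM scaling the summed level of the 285 members was 9097.7 to 9201.1 CPM in N2V8_NTG, 9341.4 to 9483.1 CPM in N2V7_NTG and 9987.5 to 10129 CPM in WT_NTG, against 10236 to 10744 CPM in UT, and none of these 4 ranges overlapped. As a share of unscaled counts the members held 0.8881 to 0.9251% in N2V8_NTG, 0.9595 to 0.9794% in N2V7_NTG and 1.01 to 1.021% in WT_NTG, against 0.9804 to 1.081% in UT, so that both variants still lay below UT while WT_NTG lay within the UT range. The scaled sum was 10782 to 10963 CPM in ASO2 and 10487 to 10674 CPM in ASO4, the first above the UT range and the other within it, and the unscaled shares of both oligonucleotides (1.045 to 1.058% and 1.017 to 1.067%) lay within the UT range. The comparisons with UT share the UT libraries.

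Among KRAB genes the largest falls were those of ZNF84 and ZNF554. ZNF84 had 25.8, 29.8 and 25.6 CPM in N2V8_NTG, 25.1, 23.8 and 25.9 CPM in N2V7_NTG and 43.2, 37.7 and 45.7 CPM in WT_NTG, against 59.5, 54.5 and 54.2 CPM in UT. The UT libraries were the highest and the WT_NTG libraries stood between, with no overlap of WT_NTG with either side. The log2 fold changes were −1.05 ± 0.09 with N2V8_NTG (adjusted p = 1.08e-14), −1.17 ± 0.09 with N2V7_NTG (adjusted p = 2.5e-16) and −0.41 ± 0.08 with WT_NTG (adjusted p = 6.77e-05).

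ZNF554 had 8.41, 8.38 and 9.32 CPM in N2V8_NTG and 10.6, 9.78 and 10.2 CPM in N2V7_NTG, against 20.8, 19.7 and 19.1 CPM in UT. Every library with either variant lay under every UT library. Its log2 fold change was −1.19 ± 0.12 with N2V8_NTG (adjusted p = 6.65e-12) and −0.96 ± 0.12 with N2V7_NTG (adjusted p = 1.34e-09). ZNF709, whose counts may be uncertain as said above, changed by −1.04 ± 0.13 with N2V8_NTG. ZNF461, a KRAB gene of chromosome 19, changed by −0.96 ± 0.14 with N2V7_NTG (11.6, 6.99 and 10.0 CPM, against 20.2, 16.5 and 19.4 CPM in UT).

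ZNF703, which has no finger by the C2H2 pattern, had 210, 187 and 179 CPM in N2V8_NTG, 239, 222 and 250 CPM in N2V7_NTG and 267, 267 and 294 CPM in WT_NTG, against 364, 358 and 383 CPM in UT. The groups did not overlap, and the log2 fold change was −0.94 ± 0.06 with N2V8_NTG (adjusted p = 2.56e-19) and −0.41 ± 0.06 with WT_NTG (adjusted p = 5.47e-08). ZNF367 fell with N2V7_NTG by 0.79 on the log2 scale, with 32.7, 33.5 and 30.1 CPM against 53.2, 59.7 and 53.1 CPM in UT.

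The members that rose included genes with a KRAB match, such as ZNF480 and ZNF738, and genes without such a match, such as ZNF207 and ZNF326. ZNF207 had 201, 258 and 227 CPM in N2V8_NTG and 169, 192 and 179 CPM in N2V7_NTG, against 137, 113 and 106 CPM in UT. All libraries with a variant were above UT, and the log2 fold change was 0.94 ± 0.09 with N2V8_NTG (adjusted p = 2.79e-11) and 0.60 ± 0.09 with N2V7_NTG (adjusted p = 8.39e-07), where the WT_NTG value was 0.06 ± 0.09 (adjusted p = 0.688). ZNF326 had 65.7, 71.9 and 62.5 CPM in N2V8_NTG and 86.7, 89.5 and 74.2 CPM in N2V7_NTG, against 29.2, 49.6 and 40.3 CPM in UT, which gave 0.75 ± 0.11 (adjusted p = 8.31e-07) and 1.07 ± 0.11 (adjusted p = 1.9e-10). ZNF654 rose by 0.78 ± 0.09 with N2V8_NTG and 0.66 ± 0.09 with N2V7_NTG, and ZNF79 by 0.77 ± 0.14 and 0.63 ± 0.14. ZNF512, ZNF326 and ZNF738 rose with all 3 effectors. The call of ZNF738 in WT_NTG (0.37 ± 0.13) was lost without library 2 or library 3 of either group (range 0.32 to 0.43), and that of ZNF143, a promoter-binding activator (−0.39 ± 0.08), without library 1 of UT (range −0.46 to −0.32).

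**Figure D2:**
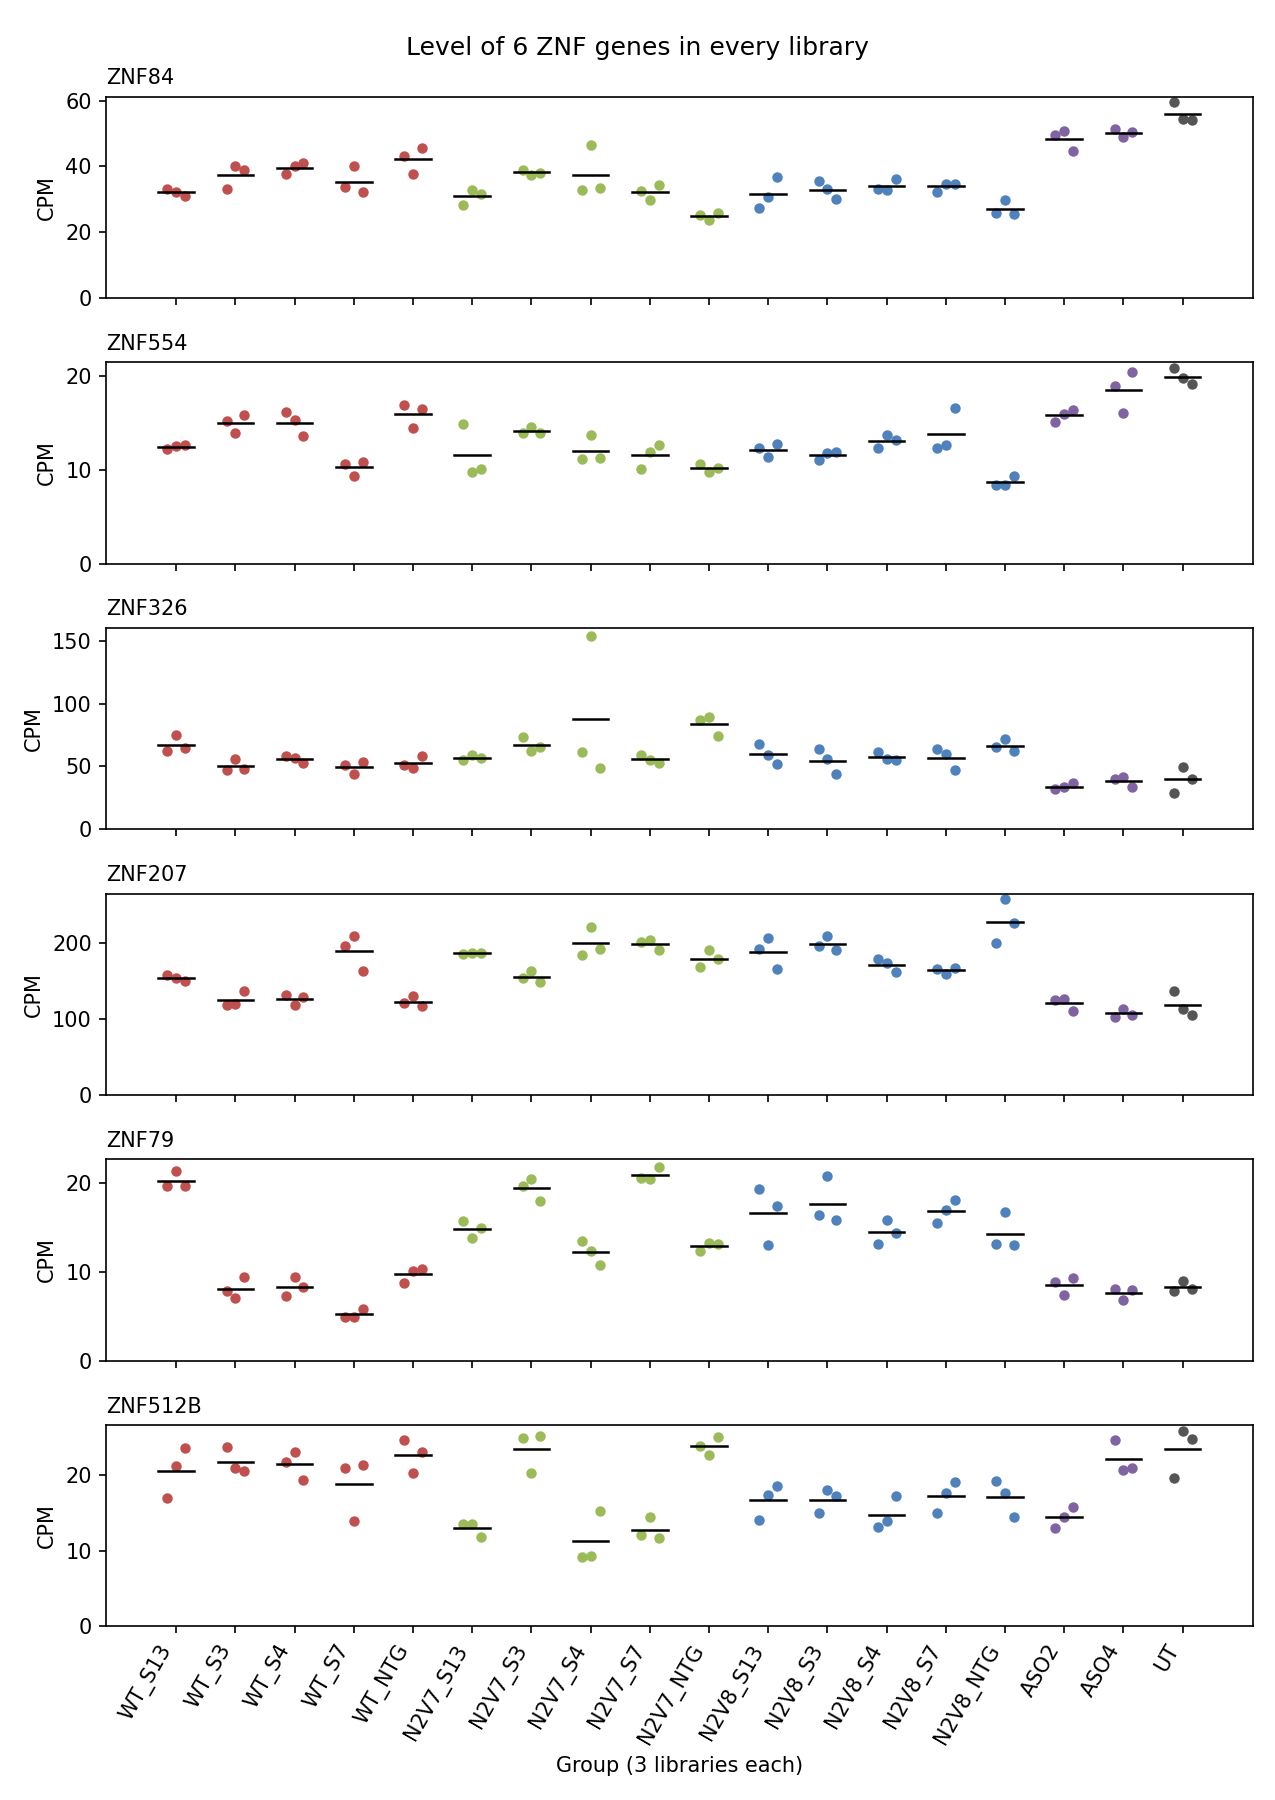
Level in CPM (vertical axis from 0) of 6 ZNF genes in every library, with 3 points for each group and a line at their mean. ZNF84 and ZNF554 are lower in N2V7_NTG and N2V8_NTG than in UT, ZNF207 is highest in N2V8_NTG, and the high point of ZNF326 in N2V7_S4 belongs to library 2.

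The variants were also compared with WT directly, with the non-targeting crRNA in both, in a pair of comparisons added after the first results were known. With N2V8_NTG against WT_NTG 85 members fell and 13 rose, against 12% falls and 12.2% rises among all tested genes, and with N2V7_NTG against WT_NTG 49 fell and 8 rose, against 5.35% and 5.68%. The medians were −0.19 and −0.12. ZNF445, a KRAB gene known to guard imprinted regions, had 39.3, 37.8 and 40.1 CPM in N2V8_NTG and 72.3, 64.9 and 72.6 CPM in WT_NTG, a log2 fold change of −0.84 ± 0.08 (adjusted p = 3.08e-12). ZNF70 and ZNF587 changed by −1.01 ± 0.20 and −0.99 ± 0.14. With N2V7_NTG the largest falls were ZNF84 (−0.76 ± 0.09) and ZNF570 (−0.72 ± 0.13). ZNF207 was higher than in WT_NTG with both variants (0.89 ± 0.09 with N2V8_NTG and 0.54 ± 0.09 with N2V7_NTG), so the variants differed from WT in both directions.

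The size of the fall went with the number of fingers. With N2V8_NTG against UT 8 of 45 members with 0 to 4 fingers fell, 16 of 58 with 5 to 8, 34 of 85 with 9 to 12 and 55 of 94 with 13 or more, and the medians were −0.05, −0.17, −0.27 and −0.37. Rises ran the other way, 7, 6, 3 and 1. Of all tested genes 14.7% fell and 15.3% rose there, and the class with 0 to 4 fingers fell and rose about as often. With N2V7_NTG the medians were −0.08, −0.13, −0.23 and −0.28, and with WT_NTG −0.04, −0.06, −0.06 and −0.07. With ASO2 against UT the same 4 classes had medians of 0.06, 0.05, 0.05 and 0.05, and with ASO4 0, 0.02, 0 and 0.01. Against WT_NTG the N2V8_NTG medians were −0.01, −0.10, −0.19 and −0.29. These counts and medians describe the classes, and the difference between the classes was not tested.

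**Figure D3:**
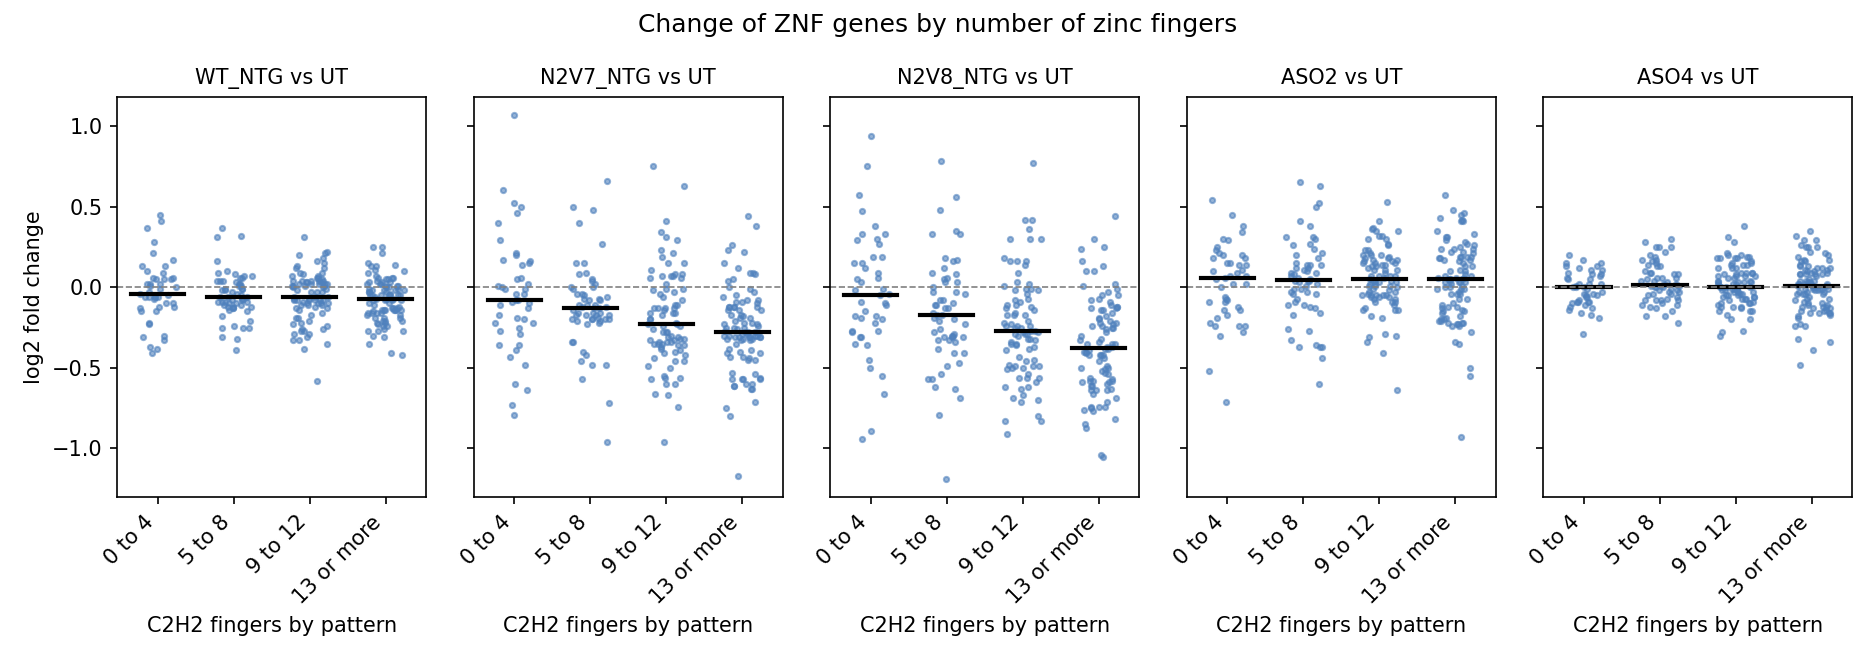
Log2 fold change against UT (vertical axis) of each ZNF gene with a coding transcript, in classes of C2H2 finger number (horizontal axis), with a line at the median of each class. The medians step down from −0.05 to −0.37 with N2V8_NTG and stay between 0 and 0.06 with the oligonucleotides.

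Finger number, KRAB box and chromosome 19 overlapped in the same genes. With N2V8_NTG against UT 69 of 155 members with a KRAB match fell, with a median of −0.29, and 44 of 127 without a match fell, with a median of −0.20. Of 114 members on chromosome 19, 58 fell (median −0.33), and of 171 elsewhere 56 fell (median −0.20). KRAB genes on chromosome 19 had a median of −0.37 and KRAB genes elsewhere −0.15, while members with no match had −0.27 on chromosome 19 and −0.19 elsewhere. By level, the 95 lowest, the 95 middle and the 95 highest members had medians of −0.29, −0.24 and −0.20. Among the 262 members that shared under 20% of their words with any other gene 105 fell and 14 rose, a median of −0.25.

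With crRNA-13 in WT cells the members rose about as often as all tested genes and fell less often. In WT_S13 against WT_NTG 17 members rose and 7 fell, against 6.53% rises and 4.24% falls among all tested genes. In percent of the members these were 5.96% and 2.46%. Among all 10169 tested genes at 10 CPM or more 5.51% rose and 5.07% fell. The median of the members was −0.02. The largest rise was that of ZNF79, a gene with 11 fingers, with 19.6, 21.3 and 19.6 CPM in WT_S13 and 8.74, 10.1 and 10.3 CPM in WT_NTG. All WT_S13 libraries were above all WT_NTG libraries, and the log2 fold change was 1.05 ± 0.12 (adjusted p = 4.46e-09).

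The KRAB genes ZNF550 and ZNF480 came next. ZNF550 had 22.5, 21 and 21.8 CPM in WT_S13 and 11.8, 16.7 and 12.3 CPM in WT_NTG (0.68 ± 0.12, adjusted p = 1.88e-05), and ZNF480 had 15.3, 16.0 and 16.4 CPM in WT_S13 and 10.1, 10.0 and 10.0 CPM in WT_NTG (0.66 ± 0.11, adjusted p = 7.55e-06). The groups did not overlap in either gene. ZNF26 (0.58 ± 0.13), ZNF654 (0.50 ± 0.09), ZNF22 (0.46 ± 0.06) and ZNF385A (0.38 ± 0.08) also rose. The call of ZNF28 (0.52 ± 0.14) was lost without library 2 of WT_S13 (0.41), that of ZNF444 (0.41 ± 0.10) without library 1 of WT_S13 (0.32) or with no factor of unwanted variation and that of ZNF57 (0.39 ± 0.11) without library 2 of WT_S13 or library 1 of WT_NTG (0.34 in each).

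The falls were smaller. ZNF84 had 33.2, 32.3 and 31 CPM in WT_S13 and 43.2, 37.7 and 45.7 CPM in WT_NTG, a log2 fold change of −0.39 ± 0.09 (adjusted p = 0.000562). ZNF592 had 72.9, 72.5 and 75.3 CPM in WT_S13 and 94.3, 90.5 and 93.4 CPM in WT_NTG, with −0.33 ± 0.06 (adjusted p = 4.95e-05). In both genes the groups stood apart in every library. The other falls by the naming rule, ZNF225, ZNF608, ZNF684, ZNF554 and ZNF624, lay between −0.39 and −0.34, and each lost its call when some of the libraries of WT_S13 or WT_NTG were left out, over a range of −0.47 to −0.25.

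In N2V7_S13 against N2V7_NTG 35 members fell and 16 rose, against 7.77% falls and 3.66% rises among all tested genes. The falls were 12.3% of the members and the rises 5.61%, and the median was 0.01. Among all 10169 tested genes at 10 CPM or more 9.89% fell and 3.75% rose, so the excess of falls was smaller by that measure. Members without a KRAB match took 24 of the falls (of 127), and those with a match 11 (of 155). ZNF512B, a gene whose protein binds the NuRD complex, had 13.5, 13.6 and 11.8 CPM in N2V7_S13 and 23.9, 22.6 and 25 CPM in N2V7_NTG. The libraries did not overlap, and the log2 fold change was −0.88 ± 0.15 (adjusted p = 1.31e-05).

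ZNF316 had 16.6, 16.8 and 20 CPM in N2V7_S13 and 29.8, 32.9 and 28.5 CPM in N2V7_NTG (−0.77 ± 0.12, adjusted p = 2.34e-06). ZNF318, a long gene product known from splicing of immunoglobulin transcripts in B cells, had 51.4, 53.9 and 51.4 CPM in N2V7_S13 and 80.7, 72.9 and 85.2 CPM in N2V7_NTG (−0.61 ± 0.07, adjusted p = 1.18e-09). Both were lower in every N2V7_S13 library. ZNF121 (−0.76 ± 0.16), ZNF8 (−0.73 ± 0.15), ZNF532 (−0.71 ± 0.12), ZNF629 (−0.70 ± 0.12), ZNF397 (−0.64 ± 0.11) and ZNF142 (−0.61 ± 0.10) completed the largest falls, with ZNF70 (−0.67 ± 0.20), whose call was lost without library 2 of either group (range −0.74 to −0.59). ZNF8 shares 20.2% of its words with a read-through gene.

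Among the rises ZNF277 had 67.5, 67.0 and 68.8 CPM in N2V7_S13 and 47.7, 46.8 and 52.6 CPM in N2V7_NTG (0.47 ± 0.08, adjusted p = 8.98e-06). ZNF564, a gene whose counts may be uncertain, had 11.5, 15 and 13.9 CPM in N2V7_S13 and 10.2, 9.13 and 7.19 CPM in N2V7_NTG (0.60 ± 0.15, adjusted p = 0.00187). N2V7_S13 libraries were the higher ones in both. ZNF684 (0.49 ± 0.13), ZNF133 (0.48 ± 0.11), ZNF627 (0.45 ± 0.10), ZNF92 (0.42 ± 0.07) and ZNF420 (0.37 ± 0.09) rose as well, and ZNF14 (0.41 ± 0.11) did so with a call that was lost without library 3 of N2V7_NTG (range 0.29 to 0.53).

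In N2V8_S13 against N2V8_NTG 10 members rose and none fell by edgeR, against 1.72% rises and 0.715% falls among all tested genes. The rises were 3.51% of the members, and 9 of them were KRAB genes. At an unadjusted p under 0.05 were 60 members of either direction, and limma-trend and DESeq2 called 9 and 8 rises and 0 falls. The median of the members was 0.06 and that of all tested genes 0. ZNF445 had 53.5, 47.4 and 56.1 CPM in N2V8_S13 and 39.3, 37.8 and 40.1 CPM in N2V8_NTG (0.42 ± 0.08, adjusted p = 0.000178), and ZNF554 had 12.3, 11.3 and 12.7 CPM in N2V8_S13 and 8.41, 8.38 and 9.32 CPM in N2V8_NTG (0.47 ± 0.13, adjusted p = 0.00554). Neither gene's groups overlapped. Both genes were also among the larger falls of N2V8_NTG above, and both comparisons use the same N2V8_NTG libraries. ZNF30 (0.44 ± 0.12) kept its call without any single library, and ZNF587 (0.51 ± 0.15) lost it without library 3 of N2V8_NTG or library 1 of N2V8_S13 (range 0.44 to 0.56).

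The effect of crRNA-13 differed between the effectors in some members. When the effect in N2V7 was taken from that in WT, 26 members had a positive and 17 a negative difference that passed the test, against 8.69% and 6.28% of all tested genes. Against N2V8 17 were positive and 31 negative, against 9.77% and 8.59%. The largest positive differences were those of ZNF480 against N2V7 (0.96 ± 0.16, adjusted p = 4.56e-06) and ZNF79 against N2V8 (0.84 ± 0.17, adjusted p = 0.000254), and the largest negative ones those of ZNF684 against N2V7 (−0.84 ± 0.19, adjusted p = 0.000523) and ZNF554 against N2V8 (−0.83 ± 0.17, adjusted p = 0.000226). A positive difference is a higher log2 fold change with crRNA-13 in WT cells. Each difference also rests on the NTG libraries of both effectors, which differed in some of these genes. Against WT_NTG, ZNF554 had −0.87 ± 0.12 and ZNF79 0.55 ± 0.13 in N2V8_NTG, and ZNF480 had 0.43 ± 0.11 in N2V7_NTG. How much of a difference lies in the NTG groups was not tested.

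**Figure D4:**
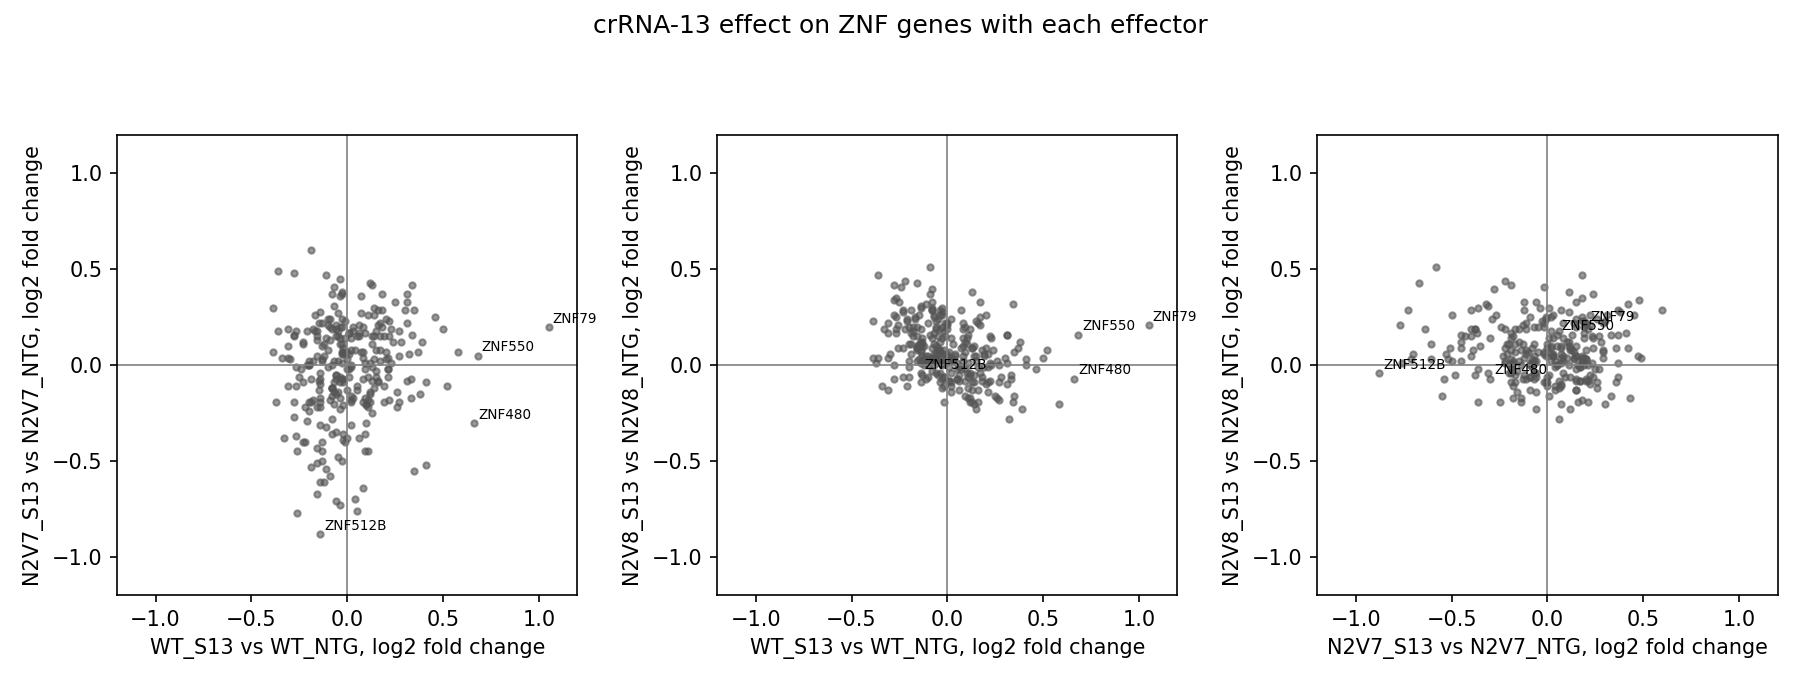
Log2 fold change of each of the 285 ZNF genes with crRNA-13 against the non-targeting crRNA, for pairs of effectors, each axis from its own libraries. ZNF79 stands to the right at 1.05 with WT, and ZNF512B at −0.88 with N2V7, at the bottom of the left panel.

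In more than 1 of the 3 crRNA-13 comparisons 7 members (2.46%) were called, 3 of them with 1 sign, against 2.54% of all tested genes, of which 190 of 391 had 1 sign. ZNF251 rose with WT (0.34 ± 0.11) and N2V7 (0.42 ± 0.12), with calls that were lost without library 2 of N2V7_S13 in the N2V7 comparison and without several libraries in the WT comparison (ranges 0.31 to 0.48 with N2V7 and 0.28 to 0.47 with WT). ZNF592 fell with WT and N2V7 (−0.38 ± 0.06 with N2V7, where N2V7_S13 libraries had 63.8, 59.5 and 64.3 CPM and N2V7_NTG libraries 80.3, 77.9 and 85.6 CPM) and had 0.19 ± 0.06 with N2V8. ZNF133 rose with N2V7 and N2V8 and had −0.28 ± 0.11 with WT, which was not called (adjusted p = 0.0545). Its N2V8 call (0.34 ± 0.11) was lost with no factor of unwanted variation. It was also lost without library 1 of N2V8_NTG or library 2 or 3 of N2V8_S13 (range 0.28 to 0.41). The others, ZNF554, ZNF587, ZNF684 and ZNF326, were called with opposite signs. Both calls of ZNF326 (0.35 with WT and −0.55 with N2V7) were lost with no factor, and the WT call also without library 1 or 2 of WT_NTG, library 2 of WT_S13 or library 2 of N2V7_S4 (range 0.27 to 0.42). The WT call of ZNF684 (−0.36) was lost with DESeq2, with no factor, with no filter and without library 2 or 3 of WT_S13 or any library of WT_NTG (range −0.43 to −0.25). Across the 285 members, Spearman's rho between the WT and N2V8 effects was −0.37, and −0.25 across all tested genes. Between WT and N2V7 it was 0.14 and 0.18. These groups share no library, and members are not independent replicates, so rho is given as a description.

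With the additional crRNAs more members fell than rose with WT_S7, and more rose than fell with N2V7_S3 and all N2V8 groups. In WT_S7 against WT_NTG 59 members fell and 8 rose, against 9.83% falls and 9.36% rises among all tested genes, with a median of −0.15. ZNF467 had 11.3, 9.52 and 12.7 CPM in WT_S7 and 20.8, 20.2 and 22.0 CPM in WT_NTG (−0.91 ± 0.12, adjusted p = 7.98e-08). ZNF79, which rose with WT_S13, had 4.93, 4.91 and 5.83 CPM in WT_S7 (−0.89 ± 0.15, adjusted p = 9e-06). ZNF658, whose counts may be uncertain, changed by −1.02 ± 0.14. ZNF207 (0.62 ± 0.09), ZNF335 (0.60 ± 0.11) and ZNF480 (0.44 ± 0.11) rose. The finger classes had medians of −0.03, −0.13, −0.16 and −0.20 in rising order of finger number.

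WT_S3 and WT_S4 moved few members. In WT_S3 against WT_NTG 3 rose and 2 fell, against 2.09% rises and 0.650% falls among all tested genes, and in WT_S4 against WT_NTG 2 rose and 3 fell, against 2.01% and 0.650%. ZNF503, a corepressor gene, had 129, 136 and 143 CPM in WT_S3 and 86.1, 91.0 and 97.2 CPM in WT_NTG (0.57 ± 0.07, adjusted p = 1.54e-09), and was the only one of these calls that stood without any single library. The WT_S4 count came to 3 without library 3 of WT_NTG and to 2 without library 2 of WT_S4.

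With N2V7_S3 against N2V7_NTG 29 members rose and none fell, against 3.13% rises and 1.02% falls. Here 90 members of either direction had an unadjusted p under 0.05, and limma-trend and DESeq2 called 31 and 23 rises and 0 falls. The median was 0.12, that of all tested genes 0.02, and ZNF570 had 16.7, 16.6 and 17.5 CPM in N2V7_S3 and 9.94, 11.6 and 11.2 CPM in N2V7_NTG (0.64 ± 0.13, adjusted p = 0.000179). ZNF84 (0.61 ± 0.09) and ZNF79 (0.58 ± 0.12) followed.

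With N2V7_S7 against N2V7_NTG 27 rose and 29 fell, against 5.38% and 8.91%, and the largest fall was again ZNF512B, with 12.1, 14.5 and 11.7 CPM in N2V7_S7 and 23.9, 22.6 and 25 CPM in N2V7_NTG (−0.90 ± 0.15, adjusted p = 7.03e-06). ZNF79 rose by 0.70 ± 0.12 and ZNF277 by 0.58 ± 0.08. With N2V7_S4 against N2V7_NTG 51 rose and 41 fell, against 9.65% and 14.5%. Without library 2 of N2V7_S4 the balance turned, with 15 rises and 29 falls. ZNF92 had 95.5, 120 and 72.7 CPM in N2V7_S4 and 56.2, 54.4 and 55.9 CPM in N2V7_NTG (0.76 ± 0.07), with the highest value in library 2, and 0.60 without that library. The largest fall, ZNF579 (14.1, 2.16 and 17.3 CPM in N2V7_S4 and 20.4, 17.9 and 19.9 CPM in N2V7_NTG), rested on that library, since its log2 fold change of −1.2 ± 0.15 shrank to −0.31 without it and was no longer called.

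With N2V8 the additional crRNAs all raised more members than they lowered. N2V8_S3 against N2V8_NTG had 14 rises and 1 fall (background 2.15% and 0.917%), N2V8_S4 33 rises and 5 falls (2.95% and 3.21%) and N2V8_S7 26 rises and 3 falls (3.86% and 3.47%), with medians of 0.08, 0.11 and 0.10. Without library 2 of N2V8_NTG the N2V8_S3 count came to 8, all of them rises. The 3 comparisons share the N2V8_NTG libraries with each other and with N2V8_S13, and N2V8_NTG held the lowest summed level of the members of all groups with N2V8 (9340.8 to 9449.3 CPM in N2V8_S3, 9562.3 to 9780.3 CPM in N2V8_S4, 9599 to 9683 CPM in N2V8_S7 and 9291.5 to 9608.6 CPM in N2V8_S13). All of these stayed under the 10236 CPM of the lowest UT library, but by the unscaled share a library of N2V8_S7 (0.9837%) passed the lowest UT library (0.9804%).

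ZNF431 had 20.9, 19.8 and 20.3 CPM in N2V8_S4 and 14.0, 14.3 and 13.6 CPM in N2V8_NTG (0.54 ± 0.10, adjusted p = 4.79e-05), and it rose by 0.53 ± 0.10 with N2V8_S3. ZNF554 rose by 0.58 ± 0.13 with N2V8_S4 and 0.66 ± 0.13 with N2V8_S7. ZNF207 changed the other way, by −0.47 ± 0.09 with N2V8_S7 and by −0.41 ± 0.09 with N2V8_S4, the second of which was not called without library 2 of N2V8_NTG (range −0.50 to −0.32). In N2V8_S4 the 94 members with 13 or more fingers had 19 rises and a median of 0.18, and the 45 with 0 to 4 fingers had 1 rise, 2 falls and a median of 0.02.

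The antisense oligonucleotides gave no general fall. With ASO2 against UT 24 members rose and 15 fell, against 7.07% rises and 9.01% falls among all tested genes, with a median of 0.05. ZNF22, a small gene of 5 fingers, had 69.0, 66.1 and 74.6 CPM in ASO2 and 44.4, 46.2 and 45.3 CPM in UT (0.63 ± 0.06, adjusted p = 1.37e-11), and ZNF32 had 33.8, 37.5 and 37.8 CPM in ASO2 and 24.9, 22.6 and 21.8 CPM in UT (0.65 ± 0.10, adjusted p = 4.12e-07). ZNF236 had 9.31, 7.62 and 6.29 CPM in ASO2 and 13.3, 14.1 and 17.6 CPM in UT (−0.93 ± 0.13, adjusted p = 8.68e-08). No libraries overlapped in these genes, and ZNF512B (−0.71 ± 0.14), ZNF382 (−0.64 ± 0.12) and ZNF362 (−0.60 ± 0.09) fell too. With ASO4 against UT 1 member rose and 3 fell, against 0.917% and 1.22%. ZNF678 had 39.9, 45.9 and 46.8 CPM in ASO4 and 58.7, 57.8 and 56.7 CPM in UT (−0.39 ± 0.07, adjusted p = 3.9e-05), a call that was lost without library 1 of ASO4 (range −0.43 to −0.32). The counts of ASO4 ran from 2 without library 2 of ASO4 to 7 without its library 1 or without library 1 of UT.

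Other zinc-finger genes stood beside the members in N2V8_NTG against UT, where 14.7% of all tested genes fell and 15.3% rose. Of 163 tested ZNF genes under the CPM limit 44 fell and 8 rose (median −0.25), of 40 ZBTB genes 10 fell and 1 rose (−0.21), of 22 ZSCAN and ZKSCAN genes 9 fell and 2 rose (−0.21), of 15 ZFP genes 6 fell (−0.23), and of 22 KLF and SP genes 4 fell and 1 rose (−0.16). The KLF and SP genes thus fell about as often as all tested genes. The 26 partners of KRAB proteins, chromatin genes of the TRIM28 pathway, had a median of 0.01, with 7 falls and 2 rises. CBX5, which encodes the heterochromatin protein HP1 alpha, fell by 1.2 on the log2 scale with N2V8_NTG (SE 0.08), while TRIM28 itself rose by 0.36 ± 0.04. CBX5 changed by −1 ± 0.08 with N2V7_NTG and −0.48 ± 0.08 with WT_NTG.

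In N2V7_S13 8 of 26 partners (30.8%) fell, against 7.77% of all tested genes, led by the NuRD subunit genes GATAD2A (−0.63 ± 0.07), GATAD2B (−0.59 ± 0.07) and CHD3 (−0.46 ± 0.06). In WT_S13 2 of 26 partners rose (7.69%, near the 6.53% of all tested genes) and 0 fell. The 2 were PPHLN1 (0.48 ± 0.07) and MPHOSPH8 (0.40 ± 0.09), genes of the HUSH silencing complex. Of 22 ZSCAN and ZKSCAN genes 4 rose (18.2%), led by ZSCAN16 (1.34 ± 0.20) and ZSCAN30 (0.75 ± 0.10). The gene that fell was ZKSCAN1 (−0.35 ± 0.07), which made 4.55% of the list, against 4.24% of all tested genes.

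Over all 17 comparisons of 2 groups that the design set out, 223 members (78.2%) were called at least once and 62 in none, against 67.7% of all tested genes and 71.8% of those at 10 CPM or more called at least once. The widest range of group means belonged to ZNF79, 2 log2 units between WT_S7, its lowest group, and N2V7_S7, its highest (20.5, 20.4 and 21.8 CPM). ZNF579 spanned 1.48 log2 units with N2V7_S4 lowest, a value that rests on library 2 of that group, and ZNF608 spanned 1.39. The narrowest ranges were those of ZNF689 (0.23), ZNF322 (0.24) and ZNF41 (0.25). ZNF24, the member with the highest level, spanned 0.31.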

How the data were processed

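RNA was sequenced in 54 libraries of HEK293T cells, 18 groups of 3. Per the labels and the study's methods the authors quantified reads with Salmon (1.5.2) and summed transcripts to genes in R (4.2.2). The deposited values are estimated counts per gene on the lengthScaledTPM scale, which need not be whole and were rounded to whole numbers here, with a column of another kind in which the authors marked the genes they kept. Of 38137 genes 15378 were tested, and 0.0723% of counts lay in the others. One fit of all 54 libraries used edgeR (4.0.16, R 4.3.3) with TMM scaling, 1 factor of unwanted variation and the quasi-likelihood F test, with 35 residual degrees of freedom. Benjamini-Hochberg adjustment ran over all tested genes within families of comparisons, and calls took an absolute log2 fold change above 0.32 and an adjusted p under 0.05. The factor held 23.5% of the residual variance, with 95.6% of its weight on N2V7_S4. Totals of 9546826 to 15099153 counts set the precision, and replicates differed beyond counting noise (chi-square per degree of freedom 2.62 to 77).

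The members and lists were chosen with earlier results of these data known, and 2 further genes are not reported here. Named genes are those with the largest called changes whose libraries did not overlap, up to 10 in each direction for crRNA-13, 5 for comparisons with UT and 3 for the other crRNAs, with the largest differences between effectors, the members called in more than 1 crRNA-13 comparison, and those of the highest level and the widest and narrowest range. Other members in the text were chosen after their values were seen. The comparisons of N2V7_NTG and N2V8_NTG with WT_NTG were added after seeing the data. Residuals of same-numbered libraries had a mean correlation of 0.00112 over 459 pairs, so the numbers do not pair the samples. Alternatives were no factor, limma-trend (3.58.1), DESeq2 (1.42.0), its size factors, no filter, a replicate block and each library left out. The test was checked on simulated data.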

Additional observations from a re-analysis of the deposited data

Results flagged for a closer look

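These results stand here because the effect of 1 comparison differed between effectors by a direct test in edgeR. With the non-targeting crRNA, 57 members differed between N2V7 and WT (2.81% higher and 17.2% lower, against 5.68% and 5.35% of all tested genes). Between N2V8 and WT 98 differed (4.56% and 29.8%, against 12.2% and 12%). The effect of crRNA-13 differed between WT and N2V7 in 43 members (9.12% positive and 5.96% negative, against 8.69% and 6.28%). Between WT and N2V8 it differed in 48 (5.96% and 10.9%, against 9.77% and 8.59%). For crRNA-13 against N2V7 the shares were near those of all tested genes. Against N2V8 positive differences were rarer and negative ones more frequent.

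For WT minus N2V7 the largest positive differences were ZNF480 (0.96), ZNF326 (0.90), ZNF79 (0.85), ZNF121 (0.82) and ZNF512B (0.74), and the largest negative ones ZNF684 (−0.84), ZNF564 (−0.79), ZNF133 (−0.76), ZNF84 (−0.70) and ZNF277 (−0.57), all in log2 units. For WT minus N2V8 they were ZNF79 (0.84), ZNF26 (0.78), ZNF480 (0.73), ZNF57 (0.62) and ZNF207 (0.60), and ZNF554 (−0.83), ZNF445 (−0.70), ZNF30 (−0.66), ZNF568 (−0.65) and ZNF133 (−0.63). Some of these genes also differed between the NTG groups that serve as baselines. With N2V8_NTG against WT_NTG the log2 fold change was −0.87 for ZNF554, −0.84 for ZNF445 and 0.89 for ZNF207. What the differences in the crRNA-13 effect come from was not tested.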

How the results depend on the processing

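Of 126 counts of called members under other settings, 123 stayed within 1.5 times the value given. Without the factor of unwanted variation the count was 6 for N2V8_S13 against N2V8_NTG, 28 for the difference between the WT and N2V7 effects of crRNA-13 and 1 for WT_S4 against WT_NTG, and the cause was not tested. With the replicate block the counts were 131 for N2V8_NTG, 97 for N2V7_NTG and 18 for WT_NTG against UT, and 11 for N2V8_S13 against N2V8_NTG. When each library was left out in turn, the counts ranged over 113 to 132, 91 to 99 and 14 to 21 for N2V8_NTG, N2V7_NTG and WT_NTG against UT, 2 to 7 for ASO4 against UT, 44 to 124 for N2V7_S4 against N2V7_NTG, 8 to 18 for N2V8_S3 against N2V8_NTG and 2 to 5 for WT_S4 against WT_NTG. Of 186 named results 48 lost their call under at least 1 alternative and no called result changed sign. Values that were not called did so when a library was left out for ZNF554 with N2V7_S13 (0.18, lowest −0.04), ZNF587 with WT_S13 (−0.09, highest 0.04) and ZNF684 with N2V8_S13 (0.04, lowest −0.08). Groups of 3 limit what could be called.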
